A study of Mus musculus with 4 samples.

Results

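The Calcrl, Syt10 and Mtnr1a neurons are 93 nuclei of the mouse cervical spinal cord, out of 2644 neuron nuclei and 4001 deposited nuclei. A neuron nucleus had at least 500 genes with a count and a stored entry for at least 4 of 6 pan-neuronal genes (Rbfox3, Snap25, Syt1, Snhg11, Grin1 and Grin2b). A member was a neuron nucleus with a stored entry for at least 3 of 8 defining genes: Has2os, Calcrl, Syt10, Mtnr1a, 4930426D05Rik, 9330154J02Rik, Kcnmb4 and C1ql3. A stored entry is a gene and nucleus pair listed in the deposited matrix with any value, 0 included, and is used here as the measure of detection. The members were therefore chosen from measured values, and every comparison of members with other neurons is a description without a test. Only the comparisons with injury were tested.

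The study isolated nuclei from the cervical cord of female mice of the genotype Chx10Cre/+; ROSA26CAG-LSL-Sun1-sfGFP-Myc/+, in which cells of the lineage marked by the Cre carry a green fluorescent protein on the nuclear envelope. GFP-positive nuclei were sorted and sequenced as nuclear RNA with 10x Genomics 3′ v3 chemistry. There were 2 libraries from uninjured mice (segments C1 to C8) and 2 from mice 5 days after a hemisection at C2 (segments C3 to C8). All 4 carried the same alleles, the labels give no age, and they do not say which animals went into which library, so a p-value here covers only the variation from one library to the next, and part of that may be technical. Injury and the range of segments cannot be told apart. Because the Cre marks a lineage and not a current state, a sorted nucleus need not express the marking gene when it is collected.

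V2a neurons are excitatory interneurons of the ventral spinal cord that project along the same side of the cord and take part in locomotor, reaching and respiratory circuits. They divide into subtypes that differ in their target, in their position and in the receptors, channels and peptides they make. Calcrl encodes the calcitonin receptor-like receptor, which binds calcitonin gene-related peptide (CGRP) or adrenomedullin depending on the receptor activity modifying protein (RAMP) beside it. Mtnr1a encodes the melatonin receptor MT1, and Syt10 encodes a synaptotagmin, a calcium-binding protein of secretory vesicles.

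The stretches directly before the transcription start of Syt10 and of Mtnr1a are shown because these genes give the group its name, and because Syt10 was the most and Mtnr1a the least often detected of the 8. Both are 100 bases long, from RefSeq on GRCm38.p6, whose table held 5 of the 8 defining genes. The Syt10 window is chr15:89841861-89841960 on the minus strand and the Mtnr1a window chr8:45069007-45069106 on the plus strand, and both are printed 5′ to 3′ on the strand of the gene. Capitals mark matches of the E-box CANNTG, a motif read the same on both strands.
Syt10: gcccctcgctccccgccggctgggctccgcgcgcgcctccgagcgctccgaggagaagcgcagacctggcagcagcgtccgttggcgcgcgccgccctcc
Mtnr1a: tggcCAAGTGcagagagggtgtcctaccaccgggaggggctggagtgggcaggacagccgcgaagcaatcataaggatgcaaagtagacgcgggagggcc
The Mtnr1a window held 1 E-box and the Syt10 window 0, whereas 34.4% of 32851 windows of the same length held at least 1. GC content was 80% before Syt10, 63% before Mtnr1a and 55% in the median window. A match is a description of these letters only.

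The libraries, called uninjured 1, uninjured 2, injured 1 and injured 2, held 2901680 to 13496025 counts and 372 to 1236 neuron nuclei. Members numbered 21, 33, 20 and 19 in this order, and their summed counts were 195415, 303982, 206398 and 101258. The median number of stored genes per member nucleus was 4849, 4826, 4004.5 and 3970, against 5573.5, 4718, 4166 and 4652 in other neurons. In all libraries 53.0% to 60.1% of stored entries held a 0. Such a 0 was read as a detection emptied by the authors' subtraction of free RNA, and it limits every statement on counts below. Uninjured 2 stood apart, since it held 839 of the 950 nuclei that had enough genes but did not pass as neurons. Between libraries 2 cell barcodes were shared, and 0 of them belonged to a member.

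The 8 defining genes differed in how often they were detected. Among the 93 members, Syt10 was stored in 74, C1ql3 in 61, Calcrl in 60, Has2os in 42, 9330154J02Rik in 34, Kcnmb4 in 29, 4930426D05Rik in 23 and Mtnr1a in 21. A single combination did not define the group: 52 distinct sets of defining genes occurred, 32 of them in 1 nucleus, and the most frequent was Calcrl with Syt10 and C1ql3, in 11 members. Calcrl and Syt10 were stored together in 49 members. At the border of the rule, 161 neurons had 2 of the genes stored, 53 had 3 and 40 had 4 or more. Synpr, which encodes the vesicle protein synaptoporin and was not part of the rule, was stored in 42.2% of neurons with 2 genes, 71.7% with 3 and 97.5% with 4 or more. Chrm2, which encodes a muscarinic acetylcholine receptor, was stored in 44.7%, 24.5% and 17.5% of the same nuclei.

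**Figure D1:**
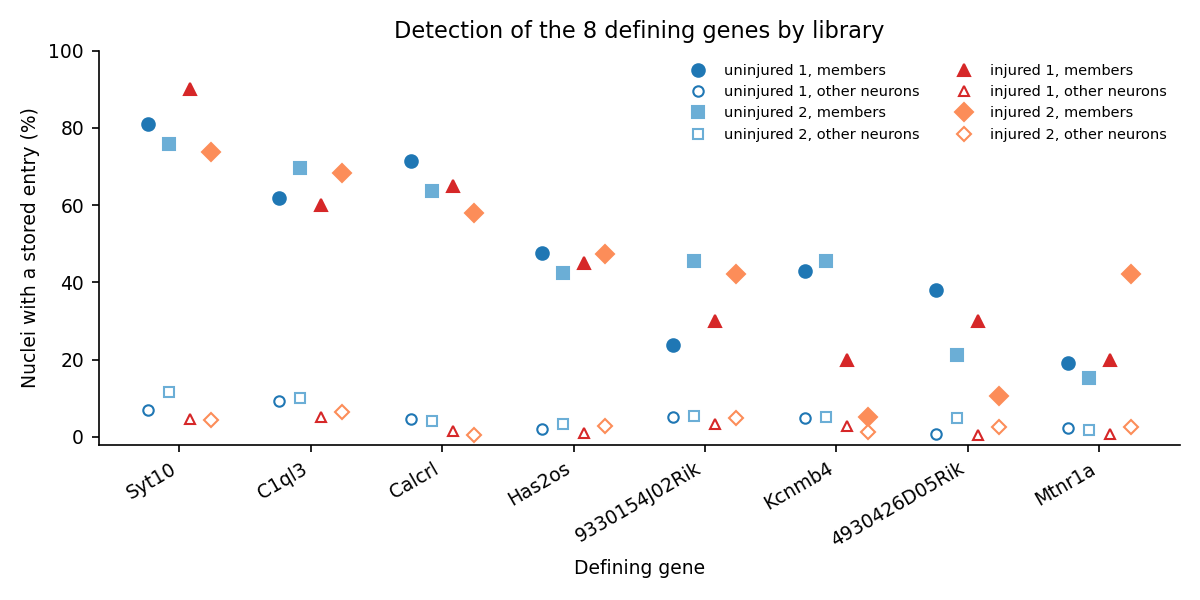
Percentage of nuclei with a stored entry for each of the 8 defining genes (x axis), in members (filled) and in other neurons matched for stored genes per nucleus (open), with 1 point per library. Syt10 lies at 73.7% to 90% of members in the 4 libraries, whereas Kcnmb4 spans 5.26% to 45.5%.

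Among the receptor genes, Calcrl was stored in 71.4%, 63.6%, 65% and 57.9% of members of uninjured 1, uninjured 2, injured 1 and injured 2. In other neurons of the same depth it was stored in 4.72%, 4.19%, 1.60% and 0.55%. Its kept counts over the members were 28, 1, 16 and 17, so that in uninjured 2 Calcrl was present as a detection and almost absent as a count. Mtnr1a was stored in 19.0%, 15.2%, 20% and 42.1% of members, with 1, 4, 7 and 10 counts. The highest share and the highest count both stood in injured 2, but only 8 nuclei carry that share.

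Among the vesicle and synapse genes, Syt10 was stored in 81.0%, 75.8%, 90% and 73.7% of members, with 45, 56, 32 and 28 counts. C1ql3, which encodes a secreted C1q-like protein of synapses, was stored in 61.9%, 69.7%, 60% and 68.4%. Neither share separated injured from uninjured members. C1ql3 was also stored in 5.54% of 650 nuclei of uninjured 2 with counts of oligodendrocyte markers, which should lack it, whereas Syt10 was stored in 0.46% and Calcrl in 0.00% of them. These oligodendrocyte nuclei were shallower, with a median of 1782 counts against 8340 in the members of that library, and 0 of them passed the rule of 3 defining genes.

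Kcnmb4, which encodes an accessory subunit of the calcium-activated BK potassium channel, was the defining gene that differed most between libraries. It was stored in 42.9%, 45.5%, 20% and 5.26% of members, so both injured libraries lay below both uninjured ones. Its counts were 10, 5, 7 and 0, and the order of the counts was not that of the shares, so no difference is read from them. The gene lies at chr10:116417861-116473878 on the minus strand of mm10, opposite Kcnmb4os1 and Kcnmb4os2. Whether counting used strand is not given in the sources used here, and the part of antisense reads was not tested.

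The 3 noncoding defining genes also lie opposite a coding gene. Has2os, at chr15:56689944-56778399 and opposite the hyaluronan synthase gene Has2, was stored in 47.6%, 42.4%, 45% and 47.4% of members, with 39, 37, 13 and 15 counts. Has2 itself was stored in 0, 0, 1 and 1 members. 9330154J02Rik lies opposite Tpbg and was stored in 23.8%, 45.5%, 30% and 42.1%, and 4930426D05Rik lies opposite Klhl14 and was stored in 38.1%, 21.2%, 30% and 10.5%. Has2os had the steadiest share of the 8, and of its stored entries 85.7% kept a count, against 17.4% for 4930426D05Rik.

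The label calls these nuclei glutamatergic V2a neurons, and its markers were present as detections more than as counts. Slc17a6, which encodes the vesicular glutamate transporter of most spinal excitatory neurons, was stored in 18 of 21, 26 of 33, 15 of 20 and 15 of 19 members, but kept 0, 0, 0 and 1 counts. Its share among members, 85.7%, 78.8%, 75.0% and 78.9%, was close to that of other neurons at 84.0%, 66.0%, 81.6% and 75.4%, and it was stored in 3.08% of the oligodendrocyte nuclei of uninjured 2. Slc17a7, another glutamate transporter gene, was stored in 0 of 93 members, which allows a share of up to 3.23%. Of the V2a lineage genes, Lhx4 was stored in 10, 11, 9 and 6 members, Sox14 in 10, 10, 5 and 5, and Sox21 in 0. Sox14, which encodes a transcription factor of V2a subsets, was stored more often in members than in matched other neurons in all 4 libraries, by 20.6, 19.97, 5.73 and 2.99 percentage points.

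Inhibitory and dorsal excitatory markers were most frequent in uninjured 2. Gad1 and Gad2, which encode the enzymes of GABA synthesis, were stored in 4 and 5 members of uninjured 2, or 12.1% and 15.2%, against 13.7% and 15.5% of matched other neurons there. Neither was stored in any of the 60 members of the other libraries, which allows a share of up to 5.00%. Of 7 inhibitory markers at least 1 was stored in 14 members and at least 3 in 4 members, and their summed level in members was 5.12, 36.2, 0 and 0 CPM, the count of a gene relative to all counts of the same nuclei, with Gata3 never stored. Ebf2 and Lmx1b, 2 of the 4 markers of dorsal excitatory neurons, were stored in 2, 11, 2 and 0 and in 1, 7, 0 and 0 members. The summed level of that list was 35.8, 388.2, 14.5 and 39.5 CPM in members and 35.8, 249.2, 34.9 and 34.6 CPM in other neurons. Uninjured 2 was thus the highest library for both kinds of nuclei. Ebf2 was stored in 33.3% of members of uninjured 2 against 28.6% of other neurons there, not matched for depth. The 8 oligodendrocyte markers summed to 0 CPM in members of every library, although each member carried 0.74 to 2.12 of them as stored entries on average. The 4 cholinergic markers summed to at most 9.88 CPM and were stored in 1, 2, 4 and 1 members, the 4 astrocyte markers to at most 6.58 CPM and the 5 vascular markers to 0. The 3 markers of oligodendrocyte precursors reached 204.0 CPM in uninjured 2, of which Vcan made 190.8 CPM, and the 4 microglial markers reached 256.6 CPM, of which P2ry12 made 233.6 CPM, against 201.7 CPM in other neurons. P2ry12 lies opposite Med12l, and the part of reads from Med12l was not tested. Genes outside these lists, chosen after their values were seen, were also high in members of uninjured 2. Bcas1, a gene of oligodendrocytes, was at 0, 220.4, 0 and 0 CPM in members and at most 1.44 CPM in other neurons. Sox6, a transcription factor gene of glia and some neurons, was at 0, 388.2, 0 and 0 CPM in members and at most 4.49 CPM in others. In uninjured 2 only 18.2% of members had Bcas1 stored and 12.1% Sox6, so few nuclei carry these levels. Qk, an RNA-binding protein gene high in glia, was at 56.3, 276.3, 4.85 and 9.88 CPM in members and 92.2, 8.54, 22.9 and 19.3 CPM in others. The part of these other types in the comparisons below was not tested.

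Members resembled each other beyond the defining genes, but not to the same degree in each library. For each neuron nucleus the 10 most similar neuron nuclei of its own library were found from the stored entries of 11856 to 12488 genes, corrected for the number of stored genes, with the 8 defining genes left out. Members had on average 3.05, 1.30, 4.90 and 4.63 other members among these 10, against 0.35, 0.21, 0.45 and 0.47 for other neurons. At least 3 member neighbours were found for 11 of 21, 5 of 33, 16 of 20 and 18 of 19 members, or 52.4%, 15.2%, 80% and 94.7%. The rule thus gathered a tight group in the injured libraries and a loose one in uninjured 2, where 11 of 33 members had no member neighbour. The 50 members with at least 3 member neighbours are called close members below. They were defined after the data were seen. In injured 1 the other 4 members had a median of 24836.5 counts, against 4731 in the 16 close members.

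**Figure D2:**
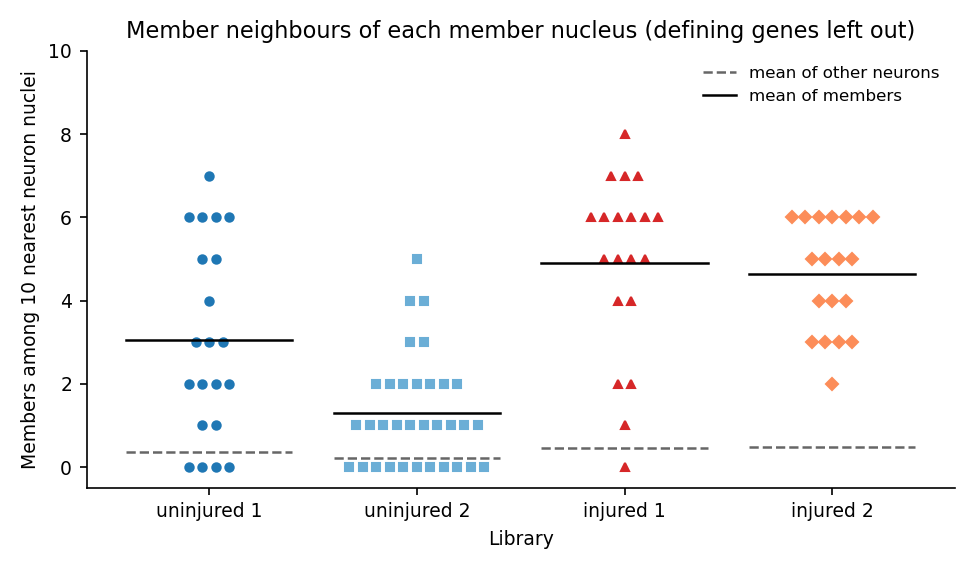
Number of members among the 10 nearest neuron nuclei (y axis) of each member nucleus, by library (x axis), with 1 symbol per nucleus and the means of members (solid line) and other neurons (dashed line). Most members of the injured libraries have 3 or more, whereas in uninjured 2 most have 2 or fewer.

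A small set of genes set members apart from other neurons in every library. Of 13362 genes stored in at least 5% of neurons, 48 (0.359%) were stored at least 15 percentage points more often in members than in depth-matched other neurons of the same library in all 4 libraries, and 19 (0.142%) at least 15 points less often. Without regard to size, 10.4% of genes were higher and 7.98% lower in all 4. A gene had to pass in every library, so leaving 1 out can only keep or raise these counts. The rise was largest without uninjured 2, to 102 genes higher and 65 lower. Without another library 59 to 67 genes were higher and 22 to 34 lower. Since the rule used these nuclei, the counts are a description.

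Synpr led the list. It was stored in 90.5%, 75.8%, 90% and 78.9% of members against 39.2%, 36.4%, 25.6% and 27.4% of matched other neurons, and its level was 547.6, 411.2, 392.4 and 572.8 CPM against 81.3, 95.6, 58.1 and 86.2 CPM. Members and others did not overlap on either measure. Adarb2, which encodes an RNA-binding protein related to the RNA-editing enzymes, was stored in 90.5%, 87.9%, 100% and 100% of members and in 53.1% to 56.5% of others. Col25a1, which encodes a transmembrane collagen, was stored in 90.5%, 72.7%, 100% and 100% against 41.2% to 49.8%. Its level in members was 1018.4, 743.5, 629.9 and 1185.1 CPM against 194.8 to 252.9 CPM in others.

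Further genes, taken by role, showed the same pattern. Of genes for signalling enzymes and vesicle regulators, Prkg2 (a cyclic GMP-dependent kinase) averaged 59.6% of members against 20.7% of others over the 4 libraries, and Baiap3 (a regulator of dense-core vesicles) 53.1% against 11.9%. Of transcription factor genes, Dach2 averaged 85.7% against 44.6%, Zfpm2 93.6% against 66.1%, Zfp536 76.8% against 53.4% and Casz1 58.0% against 31.0%. Of surface genes, Cntnap5c averaged 89.5% against 50.02%, Epha7 (an ephrin receptor) 88.1% against 63.5%, St8sia6 (a sialyltransferase) 61.6% against 22.8% and Tmem132d 83.2% against 36.2%. Tmem132d was also stored in 43.8% of the oligodendrocyte nuclei of uninjured 2, Zfpm2 in 14.6% and Adarb2 in 14.0%. Ankfn1 averaged 66.2% against 17.0%, Celf3 (an RNA-binding protein) 55.3% against 25.9% and Gab1 (a signalling adaptor) 39.1% against 13.0%. For all of these but Gab1 the CPM was also higher in members in 4 of 4 libraries; Gab1 was higher in 3.

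Among genes of peptides and ligands, detections far outnumbered counts. Penk, which encodes the precursor of the enkephalin opioid peptides, was stored in 38.1%, 33.3%, 35.0% and 47.4% of members against 9.83%, 12.4%, 7.59% and 17.4% of others, with 0 counts in members and others of every library. Dlk1, which encodes a Notch-related ligand, was stored in 36.4% to 63.2% of members against 15.8% to 33.4%, also with 0 counts. Adcyap1, which encodes the peptide PACAP, was stored in 33.3%, 39.4%, 25% and 42.1% against 8.58%, 9.54%, 5.85% and 8.19%, with 0, 0, 1 and 4 counts in members. In the oligodendrocyte nuclei of uninjured 2, Penk was stored in 0.62%, Dlk1 in 0.77% and Adcyap1 in 0.15%. Those nuclei had a median of 1655 stored genes against 4826 in members, so these shares are not matched for depth. In the 13 oligodendrocyte nuclei of uninjured 1, Dlk1 was stored in 15.4% and Penk in 0%.

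Of the receptor genes some were stored less and some more often in members. Chrm2 was stored in 14.3%, 30.3%, 25% and 10.5% of members against 69.9%, 70.7%, 67.2% and 62.0% of others. By the smallest of its 4 library differences it was the lowest of the 13362 genes. Its level in members was 363.3, 177.6, 164.7 and 0 CPM against 393.4, 430.8, 411.7 and 344.6 CPM in others. Among close members it was stored in 9.09%, 0%, 6.25% and 11.1%. Of the GABA-A receptor subunit genes, Gabrg1 was stored in 42.4% to 61.9% of members against 15.3% to 22.2% of others, whereas Gabrg3 was stored in 26.3% to 57.6% against 53.2% to 76.0%. Grm8, a metabotropic glutamate receptor gene, averaged 27.7% of members against 57.4% of others. Htr7, a serotonin receptor gene, was stored in 71.4%, 72.7%, 70% and 68.4% of members against 47.4% to 52.6% of others, but its level in CPM was close to that of others and in injured 2 lower, at 108.6 against 113.2 CPM.

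The remaining named genes that were less often stored in members were Zfp385b, a zinc finger gene (mean 20.5% against 55.1%), Mta3, a chromatin regulator gene (32.7% against 62.2%), Nkain3 (37.8% against 73.1%), Sgcd, a sarcoglycan gene (44.5% against 81.6%), Fam13a (45.7% against 67.6%), Srrm4, a neuronal splicing regulator gene (35.5% against 58.0%) and Elmo1, a regulator of Rac signalling (59.5% against 79.0%). All 10 named lower genes had a lower CPM in members in 4 of 4 libraries.

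**Figure D3:**
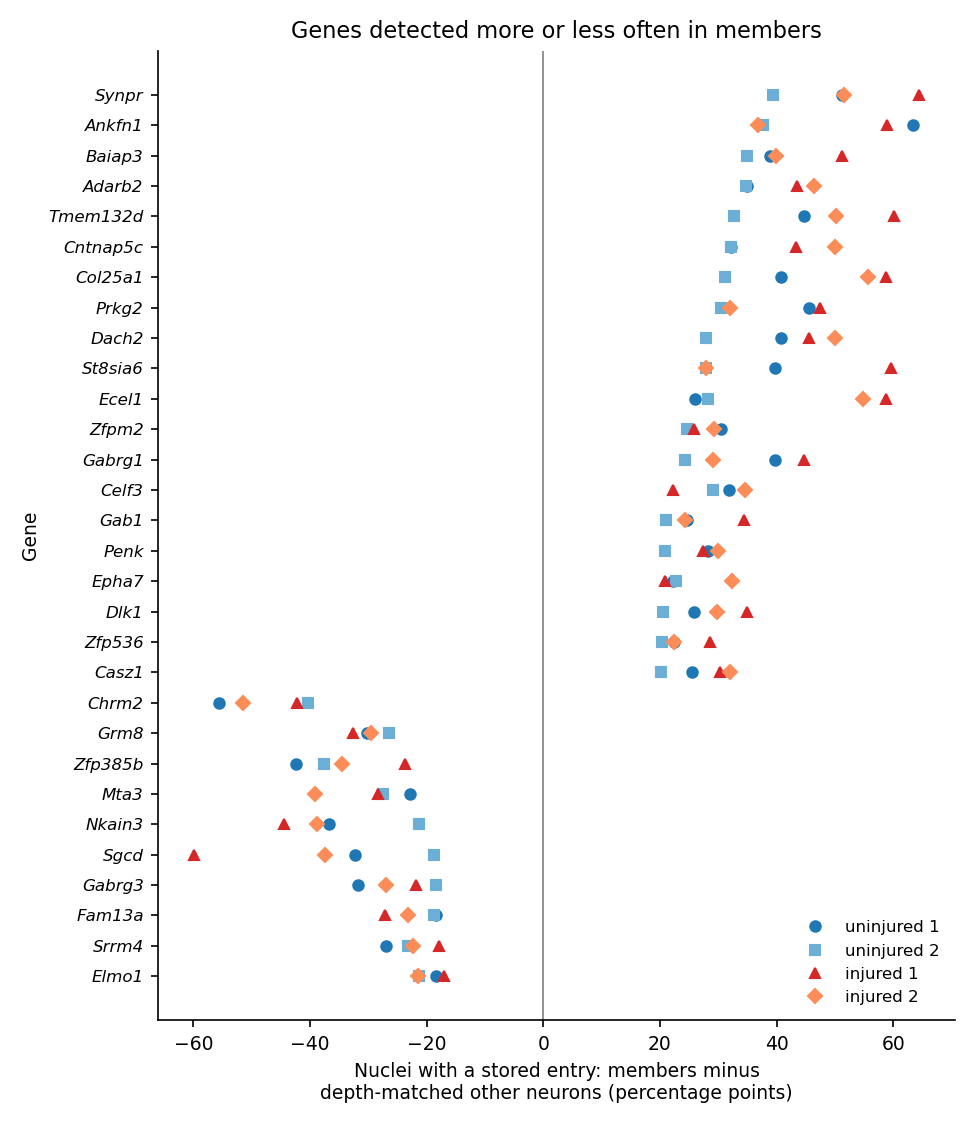
Difference in the percentage of nuclei with a stored entry, members minus depth-matched other neurons (x axis, percentage points), for the 20 higher and 10 lower named genes (y axis), with 1 point per library. Synpr differs by 39.4 to 64.4 points and Chrm2 by -55.6 to -40.4 points.

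Related gene lists, chosen with earlier results of these data known, place the members among other neurons. Of 13 measured synaptotagmin genes other than Syt10, 5 were stored more often in members in all 4 libraries (Syt5, Syt6, Syt9, Syt13 and Syt16) and 2 less often (Syt2 and Syt17), and the list's median difference was 7.80 points against 0.56 points over all genes. Syt9, for example, was stored in 66.7%, 69.7%, 35.0% and 47.4% of members against 44.4%, 42.0%, 25.2% and 23.9% of others. Syt2, the fast calcium sensor of many hindbrain and spinal synapses, was stored in 57.1%, 48.5%, 75.0% and 57.9% against 71.7% to 81.6%. Of 16 GABA-A and glycine receptor genes 8 were higher and 2 lower in all 4 libraries, of 25 potassium and HCN channel genes 9 and 2, of 21 sodium and calcium channel genes 8 and 1, and of 18 cadherin genes 9 and 0. Over all genes 10.4% were higher and 7.98% lower in all 4 libraries, so the lower counts of these lists are near that share or under it. Kcnn3, a small-conductance calcium-activated potassium channel gene, was stored in 71.4%, 51.5%, 60% and 36.8% of members against 17.9% to 30.2% of others, whereas Kcnma1, the pore gene of the BK channel that Kcnmb4 modulates, was stored in 97.0% to 100% of members and 92.5% to 98.3% of others. Of 5 measured genes of local (N-type) V2a neurons, Nfia and Nfib were lower in all 4 libraries and 0 were higher. Nfia was stored in 47.6%, 39.4%, 40% and 31.6% of members against 63.9% to 73.6% of others.

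The partners of the 2 receptors were mostly undetected. The RAMP genes that CALCRL needs at the cell surface were stored in few members: Ramp1 in 0, 3, 0 and 0, Ramp2 in 0, 1, 0 and 0, and Ramp3 in 0, 1, 0 and 0, all with 0 counts. A share of 0 allows up to 14.3% in uninjured 1, 15% in injured 1 and 15.8% in injured 2. They were rare in other neurons too, without matching for depth. Ramp1 was stored there in 2.69%, 2.49%, 1.47% and 6.52%, Ramp2 in 0.84% to 3.12% and Ramp3 in 0% to 1.08%. Crcp, which encodes a further component of the CGRP receptor, was stored in 9, 11, 8 and 2. Calca, the gene of CGRP itself, was stored in 19.0%, 9.09%, 25% and 21.1% of members against 2.30%, 2.61%, 4.69% and 7.78% of others, with 0 counts in members. Calcb, the gene of the other form of CGRP, was stored in 0, 0, 0 and 2 members, and Adm, Adm2, Iapp and Calcr in 0 of 93. The other melatonin receptor genes Mtnr1b and Gpr50 were stored in 0 of 93 members, which allows up to 3.23%, and Aanat and Asmt, the enzymes of melatonin synthesis, in 2, 1, 4 and 2 and in 1, 4, 3 and 3 members.

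Members made up 3.88% (95% Clopper-Pearson interval 2.42 to 5.87) and 2.67% (1.84 to 3.73) of neuron nuclei in the uninjured libraries and 4.04% (2.49 to 6.17) and 5.11% (3.10 to 7.86) in the injured ones. Both injured shares lay above both uninjured shares, and the 4 intervals, which cover counting error only, overlapped. The means were 3.28% ± 0.857 (SD, n = 2) and 4.57% ± 0.755, a difference of 1.30 points with an exact two-sided permutation p of 0.3333, the smallest that 2 libraries against 2 allow. The direction turned when the rule asked for 2 or more stored genes, with 1.94 points fewer in injured libraries. In 5 other settings uninjured 1 lay above injured 1, and with 4 or more stored genes the shares were 2.22%, 0.89%, 1.82% and 2.15%. Without 1 library the difference was 1.90 (uninjured 1), 0.69 (uninjured 2), 1.83 (injured 1) and 0.76 points (injured 2), and among close members it was 2.82 points. A change in the number of such nuclei and a change in the detection of their genes cannot be told apart in such a share.

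**Figure D4:**
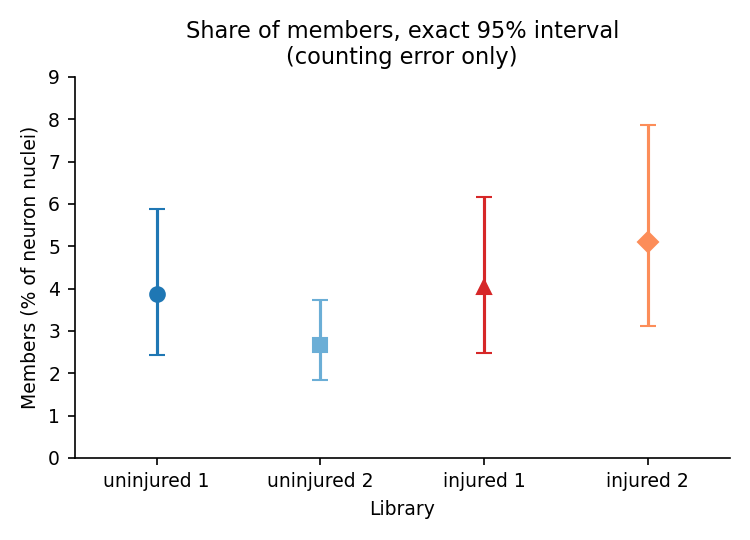
Members as a percentage of neuron nuclei (y axis) in each library (x axis), with exact 95% intervals. The shares run from 2.67% in uninjured 2 to 5.11% in injured 2.

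The question of the injury comparison was which genes differ in these neurons 5 days after a hemisection at C2. Counts were summed over the members of each library. No gene passed the threshold: 0 of 3063 genes (0%) had an adjusted p under 0.05 by the quasi-likelihood test of edgeR, and 73 had an unadjusted p under 0.05. The log2 fold changes were balanced, 1524 positive and 1539 negative with a median of -0.00. Another tool, DESeq2, called 1 gene, Kirrel3, with 34 at an unadjusted p under 0.05, and a limma test of the stored shares called 4 predicted genes and 1025 unadjusted. With 1 library left out the count was 26 without uninjured 1, 8 without uninjured 2, 12 without injured 1 and 19 without injured 2, where the lone library of a group is assumed to vary like the other group.

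Kirrel3, which encodes a cell adhesion protein of synapses, had the smallest p of the genes lower after injury. Its level in members was 388.9, 1658.0, 106.6 and 59.3 CPM, so the groups did not overlap but uninjured 2 was far above uninjured 1. In other neurons it was 468.1, 1085.2, 383.9 and 306.0 CPM, also without overlap. The log2 fold change in members was -3.61 (SE 0.81) with an unadjusted p of 0.00309 and an adjusted p of 1.00 by edgeR, and 0.00492 by DESeq2. Among the close members the level was 45.3, 117.4, 47.5 and 63.4 CPM, where the groups overlapped. Of the 504 counts in uninjured 2, the 28 members that were not close held 499. Bcas1, Sox6 and Qk were likewise highest in uninjured 2 members, and their part in this difference was not tested. Kirrel3 lies opposite Kirrel3os and Gm26662 and overlaps Gm23702 and Gm38217 on its own strand. The part of their reads in its counts was not tested.

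Sgcz, which encodes a sarcoglycan, had the smallest p of the genes higher after injury. Its level in members was 1862.7, 1835.6, 4040.7 and 3426.9 CPM, without overlap, against 6712.7, 6498.8, 6061.4 and 5807.3 CPM in other neurons, where the order of the groups was the opposite. The log2 fold change in members was 1.02 (SE 0.26), with an unadjusted p of 0.00634 and an adjusted p of 1.00 by edgeR. Stored shares did not follow the counts: Sgcz was stored in 90.5%, 93.9%, 90% and 84.2% of members. Among the close members it was stored in 81.8%, 80%, 87.5% and 83.3%, but kept 0 of 88209, 0 of 42604, 26 and 219 counts, and a count of 0 allows up to 34.0 CPM in uninjured 1 and 70.4 CPM in uninjured 2. Of 834 counts in injured 1, 4 members that were not close held 808. How the subtraction of free RNA treated such nuclei was not tested.

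The other genes with the smallest p are given as values, since none passed. On the higher side Sorcs1 (a sorting receptor) was at 373.6, 529.6, 1182.2 and 869.1 CPM in members and Esrrg (an orphan nuclear receptor) at 603.8, 486.9, 1104.7 and 809.8 CPM. In other neurons Sorcs1 was at 801.1, 860.0, 1089.4 and 874.1 CPM, with the injured libraries also above the uninjured ones. Among close members its groups overlapped, at 464.8, 1103.2, 713.2 and 824.8 CPM. Pxk, Nfyc (a subunit of the NF-Y transcription factor), Arhgap12, Rcan2 (a calcineurin regulator), Traf3 (an adaptor of immune receptors) and Bckdhb (an enzyme of branched-chain amino acid breakdown) followed, with log2 fold changes of 0.91 to 1.37. Rcan2 was also higher in the injured libraries of other neurons, at 195.3, 171.0, 204.9 and 206.7 CPM. There the groups of Esrrg, Pxk, Nfyc, Arhgap12, Traf3 and Bckdhb overlapped. On the lower side Fgf1 (a growth factor) was at 220.0, 345.4, 96.9 and 138.3 CPM in members and 191.4, 211.6, 91.4 and 94.98 CPM in others, so both kinds of nuclei showed the same order, as did close members at 238.1, 586.8, 213.9 and 148.0 CPM. Ptprt (a receptor phosphatase) was at 214.9, 661.2, 87.2 and 108.6 CPM, Cacna2d3 (a calcium channel subunit) at 204.7, 447.4, 130.8 and 49.4 CPM, and Wasf3 (an actin regulator) at 163.8, 154.6, 63.0 and 39.5 CPM. Close members did not show these falls for Ptprt, at 0, 0, 35.7 and 116.3 CPM, or Cacna2d3, at 0, 0, 59.4 and 52.9 CPM. A count of 0 there allows up to 34.0 CPM in uninjured 1 and 70.4 CPM in uninjured 2. For Wasf3 the groups of close members overlapped, at 181.4, 46.9, 47.5 and 31.7 CPM. Eaf2, Ankhd1, Cfap69, Plxna4os3 and Fndc9 completed the 10, with log2 fold changes of -1.97 to -1.60. Ptprt was also lower in the injured libraries of other neurons, at 952.6, 966.5, 764.4 and 679.4 CPM, as were Cfap69 and Plxna4os3. There the groups of Cacna2d3, Wasf3, Eaf2, Ankhd1 and Fndc9 overlapped. Fgf1, Ptprt, Cacna2d3, Eaf2, Plxna4os3 and Fndc9 lie opposite other genes, as do several of the higher genes. The part of reads from those opposite genes was not tested. The genes named here had members' groups that did not overlap, as the choice by p favours.

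**Figure D5:**
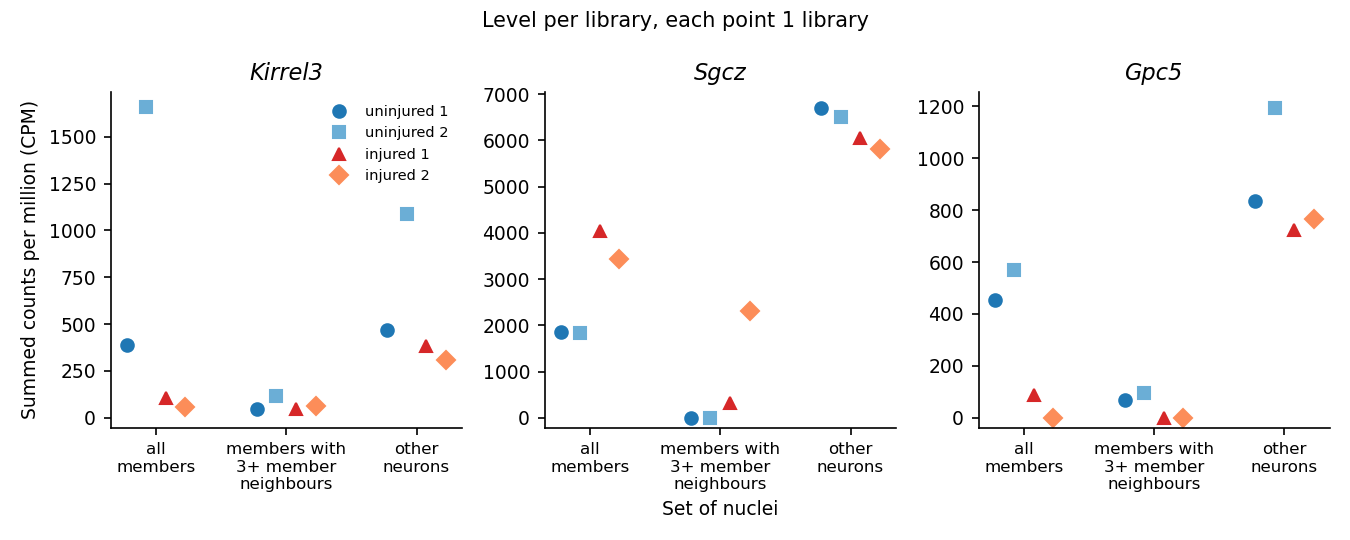
Level in CPM (y axis) of Kirrel3, Sgcz and Gpc5 in all members, in members with 3 or more member neighbours and in other neurons (x axis), with 1 point per library. Kirrel3 in all members is at 1658.0 CPM in uninjured 2 and at most 388.9 CPM elsewhere, and it is at 45.3 to 117.4 CPM in the members with 3 or more member neighbours.

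Whether members differed from other neurons in their injury difference was tested as an interaction. Of 9217 genes, 7 (0.0759%) passed, 5 (0.0542%) with a lower and 2 (0.0217%) with a higher difference in members, and 327 had an unadjusted p under 0.05. By the rule for named genes 3 of them are described here. Gpc5, which encodes a cell-surface heparan sulfate proteoglycan, was at 455.4, 569.1, 87.2 and 0 CPM in members and 834.2, 1195.7, 722.7 and 765.3 CPM in other neurons. Its interaction was -2.86 on the log2 scale (SE 0.51, adjusted p = 0.000245 by edgeR), and the 0 of injured 2 allows up to 29.6 CPM. Gpc5 was stored in 47.6%, 60.6%, 35.0% and 26.3% of members, the same order of groups as the counts. Kirrel3 had an interaction of -2.18 (SE 0.49, adjusted p = 0.0147 by edgeR) and Zeb2, a transcription factor gene, one of -5.84 (SE 1.204, adjusted p = 0.0038 by edgeR). Zeb2 was at 35.8, 161.2, 0 and 9.88 CPM in members and 54.5, 4.49, 39.3 and 23.3 CPM in other neurons, so uninjured 2 was the highest library of the members and the lowest of the others. Bcas1, Sox6 and Qk, given above, were also highest in the members of that library, and their part in this result was not tested.

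These calls depend on which nuclei and libraries entered. DESeq2 called 0 of the 9217 genes, with 97 at an unadjusted p under 0.05, and the limma test of stored shares called 0, with 188 unadjusted. Among close members 17 genes passed, all with a higher difference and Sgcz among them, whose uninjured libraries held 0 counts there. Among them the interaction of Kirrel3 was 0.88, and Gpc5 was at 68.0, 93.9, 0 and 0 CPM, where a count of 0 allows up to 35.7 and 31.7 CPM. Without 1 library the count was 14 (uninjured 1), 4 (uninjured 2), 16 (injured 1) and 33 (injured 2), where the group with 1 library again borrows its spread.

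Of the 34 gene lists 22 had a gene that was tested, and 0 of those genes passed in members, so their counts are descriptive. All 6 tested genes of the synaptotagmin list, which leaves out Syt10, had a negative log2 fold change, with a list median of -0.73. Syt10 itself was tested too and was at 0.04. Syt16 was at 204.7, 266.5, 48.5 and 158.0 CPM in members. In other neurons it was at 101.8, 200.5, 81.8 and 82.6 CPM, with the injured libraries also below the uninjured ones. Of 14 GABA-A and glycine receptor genes 3 were positive and 11 negative (median -0.24), of 17 potassium and HCN channel genes 4 and 13 (median -0.20), and of 17 sodium and calcium channel genes 6 and 11 (median -0.20). Scn9a, a sodium channel gene, was at 522.0, 687.5, 281.0 and 395.0 CPM, and Gria2, an AMPA receptor subunit gene, at 931.4, 1733.7, 692.8 and 780.2 CPM, both without overlap and both with an adjusted p of 1.00 by edgeR. Of 7 serotonin and monoamine receptor genes 6 were positive and 1 negative (median 0.07), and of 17 cadherin genes 9 and 8.

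Genes known for axon injury gave few counts in these neurons. Of the 15 on the list only Gap43, a growth cone protein gene, entered the injury test, at 66.5, 65.8, 43.6 and 187.6 CPM with a log2 fold change of 0.72 (SE 0.77, adjusted p = 1.00 by edgeR) and overlapping groups. Atf3 and Sprr1a, which are switched on in many injured neurons, were stored in 0 of 93 members. Ecel1, which encodes a peptidase of injured and developing neurons, was stored in 33.3%, 36.4%, 70% and 68.4% of members against 7.25%, 8.08%, 11.3% and 13.7% of matched other neurons. The shares of the injured libraries lay above those of the uninjured ones, but the counts were 0, 6, 5 and 0, so no order between the groups is read from them. Among close members Ecel1 was stored in 54.5%, 80%, 75.0% and 72.2%, and there the groups overlapped. Of the 12 immediate early genes only Homer1 was tested, at 179.1, 69.1, 63.0 and 69.1 CPM.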

How the data were processed

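Nuclear RNA was sequenced with 10x Genomics 3′ v3 chemistry, per the labels, in 4 libraries (2 uninjured, 2 injured). Per the submitters' processing notes, Cell Ranger (version not given in the sources used here) and Seurat 5.0.0 were used with the mouse build mm10. The deposited matrices hold whole-number counts per gene and nucleus after subtraction of free RNA with soupX, as the authors named the files, and they keep stored entries of 0. Total counts were 7128996, 13496025, 3982267 and 2901680 for uninjured 1, uninjured 2, injured 1 and injured 2.

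The members and gene lists were chosen with earlier results of these data known. Neuron nuclei and members were found by the rule given in the text. For the profile, other neurons of a library were weighted to the members' distribution over 5 bins of stored genes. For the injury tests counts were summed per library and tested with edgeR 4.0.16 (TMM scaling, expression filter, quasi-likelihood test, Benjamini-Hochberg adjustment, R 4.3.3). The interaction used summed members and summed other neurons with the library as a block. Both edgeR fits were tested on simulated data in which every gene had the same spread. The spread of the real libraries was not simulated, so that run does not bear on the calls given here. Alternatives used DESeq2 1.42.0 and limma 3.58.1, which were not tested in that way. Doublets were not removed, and an alternative left out nuclei over 2.5 times their library's median count. Gene positions are those of GENCODE on mm10.

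In each direction of an injury test the 12 largest called changes were named if their log2 CPM averaged 4 or more; a direction holding under 5 calls gave its 10 genes of smallest p instead. Named profile genes were the 20 with the largest and the 10 with the most negative smallest library difference. Predicted genes, mitochondrial genes and the 8 defining genes were left out, as were, in a direction holding under 5 calls, genes that kept a count in under 50% of stored entries of neurons in any library. Up to 4 genes of each list were named by smallest p. Exact 95% intervals, and limits for a count of 0 (3 counts or 3 nuclei), cover counting error only. Some genes that these rules would name are not reported here.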

Additional observations from a re-analysis of the deposited data

Results flagged for a closer look

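In 7 genes the injury difference in members departed from that in other neurons in edgeR's interaction test. Gpc5 (-2.86 on the log2 scale), Kirrel3 (-2.18) and Zeb2 (-5.84) are described above. The other 4 fell outside the rule for named genes, Sirt2 and Sema3d by their low mean level and Arhgap6 and Sphkap by the share of stored entries that kept a count, and were chosen after their values were seen. Sirt2, which encodes a deacetylase, had an interaction of -7.79 (SE 1.499), with 0, 42.8, 24.2 and 0 CPM in members and 0, 0.27, 38.7 and 9.83 CPM in other neurons of uninjured 1, uninjured 2, injured 1 and injured 2. Its members' groups overlapped, and the gene lies opposite Nfkbib. Sema3d, which encodes a secreted guidance protein, had an interaction of -6.63 (SE 1.52), with 40.9, 52.6, 0 and 9.88 CPM in members and 6.40, 0, 10.4 and 12.4 CPM in others. Arhgap6 had an interaction of 2.76 (SE 0.62), with 56.3, 197.4, 198.6 and 0 CPM in members and 33.6, 313.02, 19.6 and 12.01 CPM in others. Sphkap, a gene for an anchoring protein of protein kinase A, had an interaction of 2.94 (SE 0.70), with 15.4, 36.2, 87.2 and 98.8 CPM in members and 62.7, 132.2, 42.3 and 50.6 CPM in others. Of the 4, Sema3d and Sphkap had members' groups that did not overlap. The cause of these differences was not tested.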

How the results depend on the processing

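The higher share of members in injured libraries turned to -1.94 points with 2 or more stored defining genes and kept its direction under the other 8 settings. Against 0 genes differing with injury, DESeq2 gave 1, limma on stored shares 4, no filter on low counts 7, leaving out high-count nuclei 1 and leaving out a library 8 to 26. Against 7 interaction genes, 2 or more defining genes with a count gave 30, DESeq2 0, genes that kept a count in 50% of stored entries 0, limma on stored shares 0, close members 17, no filter 4, leaving out high-count nuclei 29 and leaving out a library 4 to 33. Against 48 genes stored more often in members, 2 or more defining genes with a count gave 13, close members 79 and leaving out a library 59 to 102. Against 19 stored less often, 4 or more defining genes gave 48, shares with a count 35, close members 66 and leaving out a library 22 to 65. Close members were an alternative chosen after seeing the data. The causes were not tested.

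In the limma test of stored shares the median injury difference over all genes was -0.37, and genes higher by counts reversed: Sgcz -0.80, Pxk -0.59, Nfyc -0.28, Arhgap12 -0.094, Rcan2 -0.55, Traf3 -0.63 and Bckdhb -0.93, and in the interaction Kcnab1 -1.44, Sgcz -1.06 and Sgcd -1.33. Rcan2 was at -0.12 with 4 or more defining genes, and the interaction of Ankfn1 was -0.20 without uninjured 2 and up to 2.84 with another library left out. With 2 or more defining genes holding a count Trhde was at -0.68, Tbc1d4 at -0.91 and Arhgap6 at -3.34. Arhgap6 was at -0.17 without high-count nuclei and, with a library left out, between -7.92 (injured 1) and 3.75 (injured 2). Among close members Zeb2 was at 7.08, Kirrel3 at 0.88 and Sirt2 at 1.39, and the values of Zeb2 and Sirt2 rest on almost no counts.

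The replicate numbers of the labels do not say that libraries were paired. The deviations of same-numbered libraries correlated at -0.19 over 3063 genes, and the fit with the replicate block called 0 genes, with 58 at an unadjusted p under 0.05.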

Other observations

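Some gene lists not described above also set members beside other neurons. Of 28 axon guidance genes 7 were stored more often and 5 less often in members in all 4 libraries, and of 13 hyaluronan and perineuronal net genes Vcan and Ptprz1 were higher and Hapln1 and Hapln4 lower. Of 8 rostral and 6 caudal Hox genes, which mark position along the cord, 0 were higher or lower in all 4 libraries. Over all genes measured, 10.4% were higher and 7.98% lower in all 4. The Sun1 gene, which is also part of the reporter, was at 46.1, 39.5, 63.0 and 79.0 CPM in members and 23.1, 39.9, 50.7 and 52.0 CPM in other neurons of uninjured 1, uninjured 2, injured 1 and injured 2.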
